A study of Homo sapiens with 2 samples.

Results

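Polyamine synthesis and breakdown was followed through 10 genes, ODC1, AMD1, SRM, SMS, OAZ1, OAZ2, AZIN1, SAT1, SMOX and PAOX, in EOL-1 cells with and without Glivec. EOL-1 is a human eosinophilic leukaemia line driven by the FIP1L1-PDGFRA fusion kinase, and Glivec (imatinib) inhibits that kinase. The members were the 22 of 54675 probe sets on the array whose only annotated gene symbol was one of these 10, of 19775 genes with such a probe set. The Glivec group was 1 culture given 100 nM of the drug for 4 h, and the untreated group was 1 culture without it. Both were grown in the same serum-containing medium, and each gave 1 Affymetrix array of biotin-labelled RNA. With a single array on each side, no difference could be checked against replicates and none was tested, and precision is limited throughout by the number of arrays.

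Polyamines (putrescine, spermidine and spermine) are small positively charged molecules that bind nucleic acids and are needed for growth. Ornithine decarboxylase, ODC1, makes putrescine. Spermidine synthase, SRM, and then spermine synthase, SMS, lengthen it with aminopropyl groups. Those groups come from S-adenosylmethionine after decarboxylation by AMD1. Antizymes such as OAZ1 and OAZ2 bind ODC1 and send it to the proteasome, and the antizyme inhibitor AZIN1, an ODC1-like protein without enzyme activity, releases it. SAT1 acetylates spermidine and spermine, PAOX oxidises the acetylated forms, and SMOX oxidises spermine directly. ODC1 is a well-known target gene of the transcription factor MYC, which binds DNA at E-boxes.

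By their brightest probe sets 5 members had lower signals on the Glivec array: the synthesis genes AMD1, ODC1 and SRM, and AZIN1 and PAOX. SMS, also a synthesis gene, had a higher one. The DNA just before the start sites of the synthesis genes with lower signals is shown. It is on the coding strand and runs up to the base before the start. Capitals mark an E-box (CACGTG) or its non-canonical form CACGCG, the latter read on both strands. The stretches are from RefSeq on GRCh38.p14, at chr6:110874535-110874784 (plus strand) for AMD1, chr2:10448328-10448577 (minus strand) for ODC1 and chr1:11060019-11060268 (minus strand) for SRM.
AMD1: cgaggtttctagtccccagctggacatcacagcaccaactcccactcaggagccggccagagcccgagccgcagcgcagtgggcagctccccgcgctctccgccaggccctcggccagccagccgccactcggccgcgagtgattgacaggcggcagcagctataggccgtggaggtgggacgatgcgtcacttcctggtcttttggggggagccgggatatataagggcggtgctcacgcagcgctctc
ODC1: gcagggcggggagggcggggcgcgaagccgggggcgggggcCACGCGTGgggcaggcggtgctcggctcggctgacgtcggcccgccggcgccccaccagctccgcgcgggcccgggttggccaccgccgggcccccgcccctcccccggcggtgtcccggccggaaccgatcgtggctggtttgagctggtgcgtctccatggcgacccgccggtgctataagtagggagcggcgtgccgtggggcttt
SRM: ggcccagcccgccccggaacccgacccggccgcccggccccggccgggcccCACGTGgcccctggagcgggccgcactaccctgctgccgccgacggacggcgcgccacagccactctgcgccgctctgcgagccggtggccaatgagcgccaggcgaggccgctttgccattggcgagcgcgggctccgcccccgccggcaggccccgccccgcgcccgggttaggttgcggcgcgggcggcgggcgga

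The promoter table held 7 of the 10 members, in 10 windows of 250 bases before a start site. SRM had 1 E-box, which begins 199 bases before its start. The ODC1 stretch held an overlapping pair of CACGCG matches, 1 on each strand. A second ODC1 start site, 315 bases downstream of the first, has an E-box that begins 29 bases before it. Because that window lies inside the transcript from the upstream start, only the 30 bases around the match are shown.
ODC1, second start: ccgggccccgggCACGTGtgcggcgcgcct
None of the 3 AMD1 windows held either form, nor did the windows of SMS, SAT1, OAZ1 and OAZ2. The AMD1 stretch shown nearly coincides with another of the 3 and lies downstream of the start of the last. Among all 35116 windows of that length, 6.34% held CACGTG and 9.72% held CACGCG. Counted by gene, with a match in any of its windows, 7.73% and 11.5% of 27305 genes did. The GC box GGGCGG, a site type of SP1-family factors, was present by gene in 6 of the 7 members, all but SAT1, against 46.2% of genes. The CRE half-site TGACG was in 3 of 7 members (ODC1, SMS and AMD1), against 24.9% of genes. The CCAAT letters were in 5 of 7 members, against 37.0% of genes, and in 5 of the 10 member windows, against 32.0% of windows. Each motif was read on both strands. The windows differ in base composition, with 66.4% to 82.4% G and C in the members, and a match is a description of letters only.

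Signals are MAS5 intensities, and a floor of 13.7, the median signal of all non-control probe sets, stands for the lowest level at which a ratio was taken. A gene is represented by its brightest probe set, and ratios are Glivec over untreated. All 10 members were above the floor on both arrays by that probe set, and 17 of their 22 probe sets were. The comparison asked which of them differed after kinase inhibition. At least 2-fold lower was 1 member, AMD1, where 334 of 12705 measured genes (2.63%) were, and 0 members were at least 2-fold higher, where 398 genes (3.13%) were. Of all genes past 2-fold, 54.4% were thus higher, a balance that turned with the scaling: 42.2% with quantile normalization, 37.8% with median centring, 30.3% after a loess trend and 1.70% with scaling to spike-in controls. At a threshold of 1.5-fold AMD1 was still the 1 member that was lower, against 8.33% of measured genes, and 0 members were higher, against 13.5%. A log2 ratio below 0 was found for 5 members and above 0 for 5, against 41% and 59% of measured genes. The members' median log2 ratio was -0.07, with a range from -1.03 to 0.52, and the median over all measured genes was 0.10. The members' median changed sign with some settings, at 0.14 with the mean over probe sets. There 3 members were below 0 and 7 above, against 40.9% of all measured genes below 0.

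**Figure D1:**
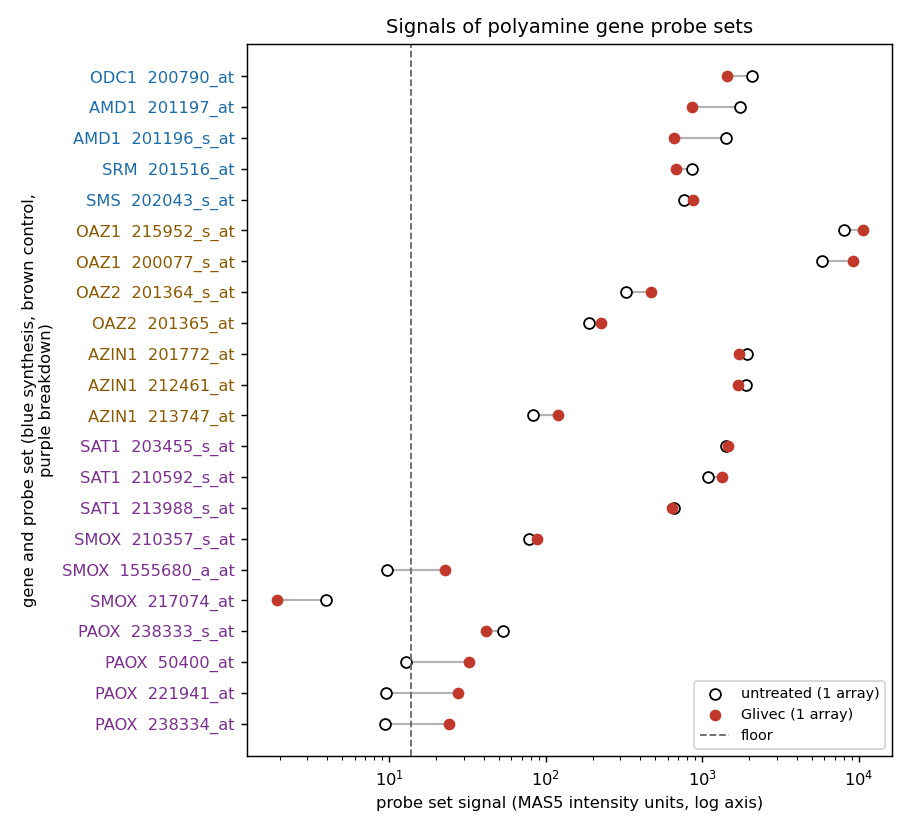
Signal of each of the 22 probe sets (log axis, MAS5 intensity units) on the untreated array (open points) and the Glivec array (red points), 1 array each, with the floor of 13.7 dashed. Both AMD1 probe sets lie clearly to the left with Glivec, while both OAZ1 and both OAZ2 probe sets lie to the right as deposited. At the brightest probe set of each antizyme gene that direction turned with spike-in scaling and, for OAZ1, with quantile normalization.

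Of the 4 synthesis genes, AMD1, ODC1 and SRM had lower signals with Glivec and SMS a slightly higher one, which turned negative with spike-in scaling. AMD1, the S-adenosylmethionine decarboxylase, had a signal of 852.9 with Glivec and 1737 without. Its other probe set had 657 with Glivec and 1409 without. The Glivec array was the lower one at both, by 2.04-fold and 2.14-fold. The log2 ratios of -1.03 and -1.10 lay 0.07 apart, with an SD of 0.05 over the 2 probe sets. For scale, the pooled SD between probe sets of one gene was 0.27 on the log2 scale among the brightest 1401 genes with several probe sets, the signal class that holds AMD1. That SD leaves out all variation between cultures. AMD1 ranked 319th from the lowest of the 12705 log2 ratios. It kept a difference of at least 2-fold under each of the 10 other ways of processing the signals. Its log2 ratio lay between -1.76 (spike-in scaling) and -1.003 (quantile normalization). Moved floors, a pseudocount and the choice of _at probe sets could hardly change so bright a gene with a representative of that suffix. Only quantile normalization, median centring, loess, spike-in scaling and the mean over probe sets could. Quantile normalization left it barely past 2-fold.

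ODC1, the enzyme that makes putrescine, had a signal of 1437 with Glivec and 2088 without at its only probe set. The Glivec array was 1.45-fold lower, a log2 ratio of -0.54. ODC1 ranked 1225th from the lowest of the 12705 genes. SRM, the spermidine synthase, had a signal of 676 with Glivec and 865 without. SRM was 1.28-fold lower, a log2 ratio of -0.36 from 1 probe set, and ranked 2051st. Both had negative log2 ratios under all 10 other ways of processing. With 1 bright _at probe set each, only quantile normalization, median centring, loess and spike-in scaling could move them appreciably. SMS, the spermine synthase, had 866 with Glivec and 768 without, or 1.13-fold higher. Its log2 ratio of 0.17 is smaller than the pooled SD of 0.27 between probe sets.

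MYC, the regulator of ODC1 named above, had a signal of 557 with Glivec and 3781 without, a log2 ratio of -2.76 from 1 probe set. The ODC1 log2 ratio, at -0.54, was smaller in size, and the part of MYC in it was not tested.

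Of the genes that control the ODC1 protein, both antizymes had higher signals with Glivec as deposited, with a sign that changed under some scalings, and AZIN1 differed little. OAZ1, the main antizyme, had a signal of 10649 with Glivec and 7980.25 without at its brighter probe set, and 9148 against 5848 at the other. Both were higher with Glivec, by 1.33-fold and 1.56-fold. OAZ1 lies at the top of the signal range, and its sign depended on the scaling. Its log2 ratio was 0.42 as deposited, 0.03 after a loess trend, -0.14 with quantile normalization and -0.32 when the arrays were scaled to spike-in controls. OAZ2, a second antizyme, had 468 with Glivec and 326 without, or 1.43-fold higher, and its dimmer probe set had 224 and 188. Its log2 ratios were 0.52 and 0.25, and the first was -0.22 with spike-in scaling. AZIN1, the antizyme inhibitor, had 1712 with Glivec and 1937 without, and a second bright probe set had 1701 and 1905. Their log2 ratios of -0.18 and -0.16 were alike. The other, dimmer AZIN1 probe set had 119 with Glivec and 83.1 without, a log2 ratio of 0.52 in the other direction. The SD over the 3 AZIN1 probe sets was 0.40, larger than the difference at any bright one.

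**Figure D2:**
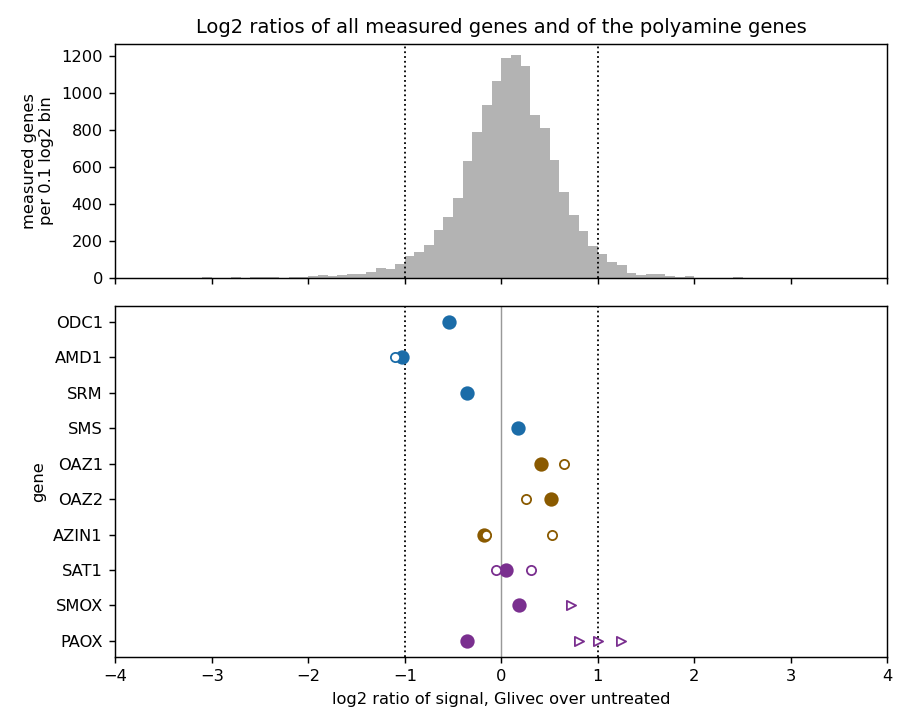
Upper panel, number of measured genes per 0.1-wide bin of log2 ratio. Lower panel, the log2 ratio of each polyamine gene, with filled points for the brightest probe set, open circles for others above the floor on both arrays and open triangles for lower bounds from the floor; dotted lines mark 2-fold. AMD1 is the only gene whose filled point lies past a dotted line, at -1.03.

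The breakdown genes showed small differences or probe sets that disagreed. SAT1, the spermidine and spermine acetyltransferase, had 1463 with Glivec and 1417 without at its brightest probe set. Its others had 1341 against 1081 and 638 against 663. The 3 log2 ratios, 0.05, 0.31 and -0.06, lie on both sides of 0 with an SD of 0.19. A further probe set that carries both SAT1 and ZSWIM8 was left out by the rule. SMOX, the spermine oxidase, was dim. Its brightest probe set had 88.2 with Glivec and 78.0 without, or 1.13-fold higher. A second had 22.7 with Glivec and 9.67, below the floor, without, or at least 1.65-fold higher, and the last was below the floor on both arrays (1.90 and 3.94).

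PAOX, the acetylpolyamine oxidase, was dim and split by probe set. Its representative probe set had 41.2 with Glivec and 52.9 without, or 1.28-fold lower. The other 3 had 32.3, 27.4 and 24.0 with Glivec against 12.7, 9.59 and 9.43 without, all 3 untreated values below the floor. They were at least 2.36-fold, 1.999-fold and 1.75-fold higher. PAOX therefore had a log2 ratio of -0.36 by its brightest probe set, 0.67 by the mean over probe sets and a bound of 1.24 by probe sets with a plain _at suffix. No direction is given for PAOX.

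Grouped by role, as deposited, the synthesis genes had a median log2 ratio of -0.45 over 4 genes, the control genes 0.42 over 3 and the breakdown genes 0.05 over 3. By probe sets above the floor on both arrays, 4 of 5 were lower for synthesis, 2 of 7 for control and 2 of 5 for breakdown, against 43.9% of all 21073 named probe sets that likewise exceeded the floor in both groups. The breakdown share is near that background, and these groups are too small to read an order from. The control median is the value of OAZ1: it was 0.03 after loess and -0.14 with quantile normalization, below the breakdown median of 0.06 there. With the mean over probe sets the breakdown median, 0.45, was above the control median of 0.39. The synthesis median was the lowest of the 3 under each of the 10 other ways of processing, though moved floors and the pseudocount could hardly change it. Among the 3177 brightest measured genes (mean signal of at least 378), which include 8 of the 10 members, 55 were at least 2-fold lower (1.73%) and the median log2 ratio was 0.03.

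Scaling sets the sign of the small differences. The 18 spike-in probe sets had a median log2 ratio of 0.74, and the median of all measured genes, 0.10 as deposited, became -0.59 when the arrays were scaled to these controls. With that scaling all 10 members were negative, where 90.0% of all measured genes were. Of the members 4, AMD1, ODC1, SRM and PAOX, were at least 2-fold lower, against 19.3% of all measured genes. Relative to the median of all genes, AMD1 was at -1.12 as deposited and -1.18 with spike-in scaling, ODC1 at -0.64 and -0.69, and SRM at -0.45 and -0.50. Such scaling shifts genes nearly alike, so little difference between these pairs of values was possible. Relative to the same medians OAZ2 was at 0.42 and 0.37. OAZ1 was at 0.32 and 0.27, but at 0.02 after loess and -0.18 with quantile normalization.

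**Figure D3:**
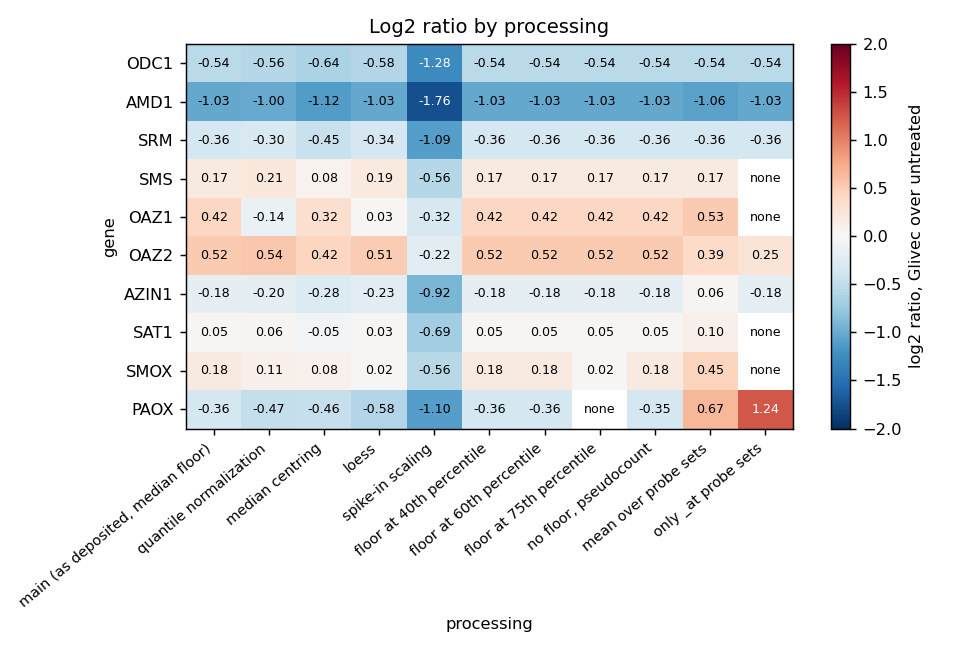
Log2 ratio of each polyamine gene (rows) under the processing used here and 10 alternatives (columns), coloured from blue (lower with Glivec) to red (higher); "none" marks a gene without a value. AMD1, ODC1 and SRM are negative in every column, while the other 7 genes change sign in at least 1 column. For AMD1, ODC1 and SRM, all bright, moved floors and the pseudocount could hardly change a value.

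Genes that feed or use the pathway were read from 6 lists of 40 genes, of which 37 had a probe set of their own and 28 were measured. At least 2-fold lower was 1 of the 28 and 0 were at least 2-fold higher, against 2.63% and 3.13% of measured genes. Their median log2 ratio was -0.01, with 13 above 0 and 15 below, against 59% and 41% of measured genes.

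The list of S-adenosylmethionine supply held that 1 gene, MAT2A, the synthetase subunit that makes the substrate of AMD1. MAT2A had a signal of 562 with Glivec and 1791 without, and 168 against 481 at its other probe set. The Glivec array was lower at both, with log2 ratios of -1.67 and -1.52, and MAT2A ranked 76th from the lowest. MTRR, the reductase that keeps methionine synthase active, had 284 with Glivec and 469 without. Its probe sets gave log2 ratios of -0.72 and -0.81. MAT2B, the regulatory partner of MAT2A, had 2534 and 2053, a log2 ratio of 0.30, and AHCYL2 was at 0.26. Of the 7 measured genes of this list 5 were above 0, against 59% of measured genes. The 2 below 0 were MAT2A and MTRR, against 41%.

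In the hypusine list, which covers the conversion of spermidine into the modified residue of the translation factor eIF5A, 3 of 4 genes were below 0, against 41% of measured genes, and none passed 2-fold. EIF5A2, the second eIF5A gene, was dim, with 25.3 with Glivec and 47.8 without, a log2 ratio of -0.92. Its other probe sets gave -0.17, from 31.6 and 35.5, and a bound of -0.70. EIF5A had 3488 with Glivec and 4157 without, a log2 ratio of -0.25. Its other probe sets, also bright on both arrays, gave only -0.06 and -0.08. DOHH, the hydroxylase of the pathway, was at -0.10.

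In the ornithine supply list, which also holds the agmatinase AGMAT, 4 of 5 measured genes were below 0, against 41% of measured genes. None passed 2-fold. One of the 4, AGMAT, was a bound at -0.01, with 9.13 with Glivec and 13.8 without, and so was at the floor. ALDH18A1, the pyrroline-5-carboxylate synthase, was at -0.37 and OAT, the ornithine aminotransferase, at -0.18. The mitochondrial arginase ARG2 was at 0.30 by one dim probe set and -0.41, a bound, by another. Of the transport list 3 of 8 genes with a probe set were measured: ATP13A2, a lysosomal polyamine exporter, at 0.65 from signals of 29.4 and 18.8, SLC3A2 at -0.48 and ATP13A3 at -0.28, or -0.92 by another probe set. In methylthioadenosine salvage, which recycles the by-product of spermidine and spermine synthesis, 3 of 6 genes were below 0, against 41% of measured genes. ENOPH1 was at -0.54, MTAP, near the floor, at -0.48 and GOT1 at 0.17. Of the remaining polyamine enzymes SAT2 was at 0.47 and AZIN2 at 0.25, with another AZIN2 probe set at -0.64.

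**Figure D4:**
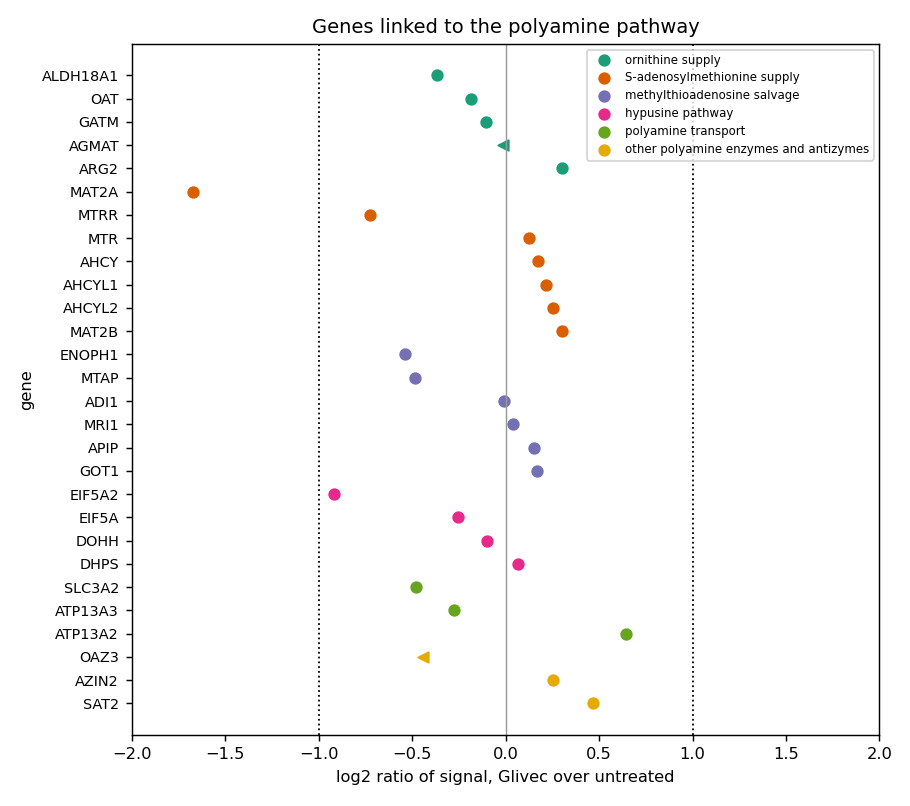
Log2 ratio of the 28 measured genes linked to the polyamine pathway, coloured by list, with triangles for bounds and dotted lines at 2-fold. MAT2A, at -1.67, is the only gene past a dotted line.

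The labelled cell line was read against its markers. The eosinophil granule genes PRG2 and RNASE2 were bright on both arrays (6302 and 4744, and 2872 and 2146), whereas IL5RA, SIGLEC8 and PRG3 were below the floor on both and EPX and CLC were near it. Of the myeloid list 5 of 6 genes were measured, all 5 with log2 ratios above 0, against 59% of measured genes. They ran from 0.05 (CEBPA) to 1.21 (SPI1), with a median of 0.34 as deposited. The summed eosinophil signal as deposited, nearly all of it from PRG2 and RNASE2, was 9244 with Glivec and 6936 without. Markers of other blood cells were near or below the floor, 2 of 7 for T and NK cells, 2 of 5 for B cells and 4 of 6 for erythroid cells and megakaryocytes being above it on an array. The exceptions were NKG7, bright at 697 with Glivec and 853 without, and CD79A, at 94.9 and 60.03. The part of these differences in the polyamine genes was not tested.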

How the data were processed

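Both arrays hold 1 signal per probe set. The deposited values are linear signal intensities and come from MAS5, per the submitters' processing notes, in a version not given in the sources used here. Their 2% trimmed mean was 100.014 on each array, so they had been scaled to a common level. The platform's annotation gave the names: 41097 probe sets had 1 gene symbol, 1801 several. Entrez identifiers matched 41043 to GRCh38.p14 and changed 0 symbols. Probe sets with the suffix _x_at stood for a gene only where it had no other. Signals below the floor were raised to it, and measured genes are those above it on 1 array or both. Ratios were counted at 2-fold. No coordinates go with the signals; promoter windows are RefSeq's. Genes named from the linked lists were those past 2-fold and the 3 largest log2 ratios in size above the floor on both arrays, plus MYC. The members, lists and rules were chosen with earlier results of these data known. The calculation was tested on simulated data. Alternatives were quantile normalization, median centring, loess (span 0.3), spike-in scaling, a floor moved to percentile 40, 60 or 75, a pseudocount of 0.646 in place of the floor, only _at probe sets, a gene's mean over its probe sets, and thresholds of 1.5-fold and 3-fold. Python 3.11.15, numpy 2.4.6, pandas 2.3.3, scipy 1.17.1, statsmodels 0.14.6 and matplotlib 3.10.9 were used.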

Additional observations from a re-analysis of the deposited data

How the results depend on the processing

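No paired analysis was possible because there is a single array on each side, which also leaves no replicate to leave out. Of 95 member log2 ratios under alternatives, 81 lay within the pooled SD between probe sets of 0.325 from the reported one. Part of the 81 was fixed in advance, as moved floors and the pseudocount hardly change a bright gene. The other 14 moved further, 10 of them with spike-in scaling. Except where fewer genes or a shifted threshold account for a count by construction, the cause was not tested. Members at least 2-fold lower were 4 of 10 with spike-in scaling (19.3% of all genes) and 0 of 10 at a 3-fold threshold (0.677%). With only _at probe sets 1 of 6 members, PAOX, was at least 2-fold higher (3.20% of all genes). The members' median was -0.80 after scaling to spike-ins, 0.02 when the floor was at percentile 75 and -0.27 with only _at probe sets. Of 28 linked genes, 2 were lower with quantile normalization (3.14% of all genes), median centring (3.53%) and loess (3.75%), 7 with spike-in scaling, and 3 (8.33%), with 1 higher (13.5%), at 1.5-fold. With the 40th percentile floor 2 of 31 were lower (3.07%), with the pseudocount 3 of 37 lower (9.35%) and 3 higher (12.2%), and with only _at probe sets, where MAT2A has none, 0 of 19 (2.65%). Of all genes, higher and lower were 290 and 398 with quantile normalization, 272 and 448 with median centring, 207 and 476 after loess, 43 and 2484 with spike-in scaling, 735 and 459 for a floor at percentile 40, 234 and 276 at percentile 60, 91 and 176 at percentile 75, 2408 and 1848 with the pseudocount, 1711 and 1058 at 1.5-fold and 56 and 86 at 3-fold. For SMOX and PAOX, whose signals were dim, ratios are limited by the floor.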

Other observations

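MTAP, the phosphorylase that clears methylthioadenosine, the by-product of spermidine and spermine synthesis, has 6 probe sets. Of these 5 were below the floor of 13.7 on both arrays, with signals from 0.83 to 8.37. The sixth had 14.3 with Glivec and 20.0 without. This was singled out after its values were seen. The next genes of that salvage route were bright on both arrays: MRI1 had 571 and 557, ENOPH1 1150 and 1672 and ADI1 2001 and 2012.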
